A study of Homo sapiens with 18 samples.

Results

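Kruppel-like factors are a family of zinc finger transcription factors, and 9 of them, KLF3, KLF4, KLF6, KLF7, KLF9, KLF10, KLF11, KLF12 and KLF13, were followed here in newly made RNA of human neuroblastoma cells. They were taken by gene symbol from the 28063 genes listed for every library, and all 9 passed the filter on low counts that kept 12853 genes for testing. KLF4, KLF9 and KLF11 passed it with few counts. BRM014 inhibits the chromatin remodelling ATPases SMARCA4 and SMARCA2, of which SMARCA2 had 0 counts in KELLY cells. With BRM014, KLF7 and KLF12 rose in KELLY, and KLF6, KLF9 and KLF12 rose in SK-N-DZ cells. KLF10 rose in IMR-32 but fell in the other 2 lines. KLF13 was lower in every treated group but passed the test only in KELLY. The results for KLF9 and KLF12 in SK-N-DZ, KLF10 in each line and KLF13 in KELLY did not hold under every change of processing or libraries.

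The series comprised 18 libraries, 2 in each of 9 groups. SK-N-DZ, KELLY and IMR-32 are established neuroblastoma lines, of wild-type genotype per the labels, that were given 1 uM BRM014, an inhibitor of the ATPase activity of SMARCA4 and SMARCA2, or its vehicle DMSO. An engineered IMR-32 derivative, in which SMARCA4 carries a mini auxin-inducible degron (SMARCA4-mAID), was given 500 uM auxin, the signal for degradation of the tagged protein, or its vehicle ethanol. All 8 of these groups received 500 uM of the uridine analogue 4-thiouridine (4sU) for 2 h, and the ninth group was KELLY cells with neither inhibitor nor 4sU. Exposure times, the number of SMARCA4-mAID clones and the cultures behind the libraries of a group were not given in the sources used here. The p-values thus describe the spread between libraries of a group, possibly a technical one. In the main fit that spread was estimated jointly over all labelled groups.

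Kruppel-like factors bind CACCC boxes and related GC-rich elements through C-terminal zinc fingers, and differ in the cofactors that their N-terminal parts recruit. KLF4, KLF6 and KLF7 can bring in the acetyltransferases p300 and CBP, KLF3 and KLF12 bind the corepressor CtBP, and KLF9, KLF10, KLF11 and KLF13 bind the corepressor SIN3A. In neurons the family is known for its control of axon growth: KLF6 and KLF7 promote it, while KLF4 and KLF9 restrain it. KLF10 and KLF11 are also known as TGF-beta-inducible early genes, and KLF9 responds to glucocorticoid and thyroid hormone.

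Labelled libraries held 724913 to 1740475 gene counts, and those of IMR-32 and SK-N-DZ cells with BRM014 were the shallowest, at 724913 to 775064 against 1148208 to 1740475 with DMSO. The unlabelled KELLY libraries held 5395 and 4432 counts, of which 2 and 1 were counts of a Kruppel-like factor. No member had more than 1 count in either library. That describes these KELLY libraries only, and the background within labelled libraries cannot be read from them. SMARCA4 RNA was at 724 and 842 gene counts per 1000000 (CPM) with ethanol and 644 and 584 CPM with auxin in the SMARCA4-mAID line, above the 85.5 and 102 CPM of IMR-32 with DMSO. SMARCA2 RNA was at 18.8 and 15.7 CPM in IMR-32 with DMSO and 0.629 and 2.87 CPM in SK-N-DZ with DMSO. In KELLY it had 0 counts with DMSO and with BRM014. The part of this line difference in the BRM014 results was not tested. These RNA values check neither the degradation of SMARCA4 protein nor the inhibition of either ATPase. All 12 adrenergic neuroblastoma markers were detected, with a summed level of 2388 to 6755 CPM per labelled library. Summed levels did not pass 12.6 CPM for Schwann cell or leukocyte markers, 2.78 CPM for endothelial markers or 3.63 CPM for epithelial markers, and S100B, CD3E, PECAM1, KRT18 and CDH1 were at 0. Mesenchymal neuroblastoma markers summed to 186 to 537 CPM. They were at 186 and 244 CPM in KELLY with DMSO and 508 and 537 CPM with BRM014. In IMR-32 they went the other way, from 444 and 455 CPM with DMSO to 341 and 348 CPM with BRM014. SK-N-DZ had 377 and 385 CPM with DMSO and 425 and 484 CPM with BRM014. The SMARCA4-mAID line had 373 and 425 CPM with ethanol and 446 and 487 CPM with auxin. The part of these markers in the results was not tested.

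The 9 genes lie apart from each other in the genome (GENCODE 29 models on GRCh38). KLF6 is at chr10:3775996-3785281, KLF7 at chr2:207074137-207167267, KLF4 at chr9:107484852-107490482, KLF3 at chr4:38664196-38701042 and KLF12 at chr13:73686089-73995056. KLF9 is at chr9:70384597-70414624, KLF11 at chr2:10042849-10054836 and KLF13 at chr15:31326855-31435665. All counts are per gene, with exons, introns and untranslated regions not told apart. Conserved zinc finger sequence could in principle send a read to the wrong member, so shared sequence was measured. The longest exact run that the longest transcripts of any pair of members had in common was 26 bases, between KLF6 and KLF7. Similar stretches with mismatches were not searched, so the run, shown here, does not bound what these genes can confuse.
KLF6 and KLF7 shared run: gacaggtgtttttccaggtctgacca
No pair of members shared an exact stretch of 50 bases. KLF7 shared 16 of its 9155 stretches of 50 bases with KLF7P1, which the count files do not list. KLF3 shared 266 exonic bases with the antisense gene KLF3-AS1, which the count files also list, and KLF11 shared 416 with the antisense gene AC104794.4. As the strand setting is not given, reads of these antisense pairs cannot be told apart, and values of KLF3 and KLF11 carry that limit.

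RefSeq promoter windows on GRCh38.p14, of 250 bases before to 50 bases after a transcript start, were matched by symbol for 7 members in 14 windows. The 3 shown belong to the members with the largest rises in SK-N-DZ (KLF6 and KLF9) and to the member that was lower in every treated group (KLF13), and they include only bases upstream of the GENCODE gene. Motifs were searched on both strands, and matches are in capitals: GGGTG (the CACCC box, in 59.8% of 34943 windows of all genes), GGGCGG (the GC box, 44.9%), TGACG (the core of the cyclic AMP response element, 24.5%), TGACTCA (AP-1, 4.96%), CACGTG (E-box, 7.23%) and TATAAA (11.6%, the core of the TATA box). Adjacent or overlapping matches run together.
KLF6, chr10:3785282-3785459, minus strand: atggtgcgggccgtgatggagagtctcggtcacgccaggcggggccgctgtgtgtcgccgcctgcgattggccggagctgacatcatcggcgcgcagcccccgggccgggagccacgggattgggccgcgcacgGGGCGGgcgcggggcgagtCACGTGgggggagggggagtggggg
KLF9, chr9:70414658-70414907, minus strand: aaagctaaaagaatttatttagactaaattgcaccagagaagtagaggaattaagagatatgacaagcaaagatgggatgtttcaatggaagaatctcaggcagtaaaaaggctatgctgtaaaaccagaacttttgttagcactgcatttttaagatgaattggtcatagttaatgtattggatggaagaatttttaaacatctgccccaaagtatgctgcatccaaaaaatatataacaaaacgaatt
KLF13, chr15:31326585-31326834, plus strand: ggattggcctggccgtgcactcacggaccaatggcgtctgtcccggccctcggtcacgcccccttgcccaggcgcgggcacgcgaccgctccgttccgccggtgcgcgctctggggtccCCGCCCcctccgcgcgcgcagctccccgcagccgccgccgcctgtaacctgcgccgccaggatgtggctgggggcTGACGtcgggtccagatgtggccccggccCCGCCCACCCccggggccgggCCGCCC
The windows differed in base composition. The KLF13 window was 78.3% G or C, above 95.5% of all windows, and held 3 GC boxes, 1 CACCC box and 1 TGACG. The KLF6 window was 70.7% G or C and held 2 GC boxes and 1 E-box, of which 1 GC box lies past the bases shown. The KLF9 window was 32.7% G or C, above only 2.36% of windows, and held none of the 6 motifs. A match describes letters in a window and says nothing on its own about binding.

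The member with the highest level in newly made RNA differed between vehicle-treated lines. Line and culture medium cannot be told apart in these comparisons. They also share vehicle libraries with each other and with the treatment comparisons, so the results are not independent. Per kb of exon, KLF7 led in IMR-32 with DMSO, at 86.1 CPM per kb, followed by KLF10 at 48.8, KLF3 at 25.7, KLF13 at 19.9, KLF6 at 17.8, KLF12 at 17.1, KLF11 at 6.24, KLF9 at 5.65 and KLF4 at 1.60. In that order KLF6 and KLF12, and KLF11 and KLF9, did not differ beyond their spread. KLF10 led in KELLY at 53.7 CPM per kb, ahead of KLF7 at 33.2 and KLF3 at 31.9, which did not differ beyond their spread. KLF10 led again in SK-N-DZ at 65.5 CPM per kb, ahead of KLF7 at 33.9 and KLF3 at 24.4. At the lower end SK-N-DZ had KLF11 at 1.96, KLF9 at 0.531 and KLF4 at 0 CPM per kb, and KELLY had KLF12 at 7.29, KLF9 at 1.75 and KLF4 at 0.919, of which KLF9 and KLF4 did not differ beyond their spread. The SMARCA4-mAID line with ethanol had the order of its IMR-32 parent at the top, with KLF7 at 124 and KLF10 at 53.1 CPM per kb. These levels are conversion counts of newly made RNA divided by exon length only. The T content of the longest transcript ran from 21.8% for KLF13 to 30.8% for KLF12, and its part in the order was not tested.

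**Figure D1:**
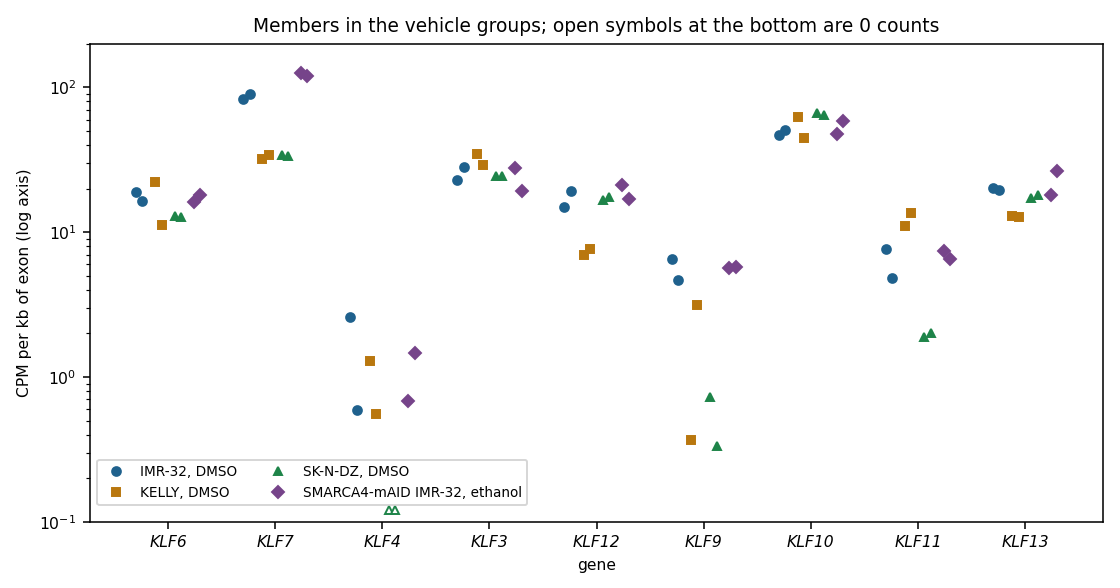
Level of each member in CPM per kb of exon (log axis) in each of the 2 libraries of the 4 vehicle groups, with libraries at 0 counts drawn as open symbols at the bottom edge. KLF7 separates IMR-32 and its SMARCA4-mAID derivative from the other 2 lines, KLF12 is lowest in KELLY, KLF11 is lowest in SK-N-DZ, and the KLF9 libraries of KELLY and SK-N-DZ overlap.

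KLF7, which promotes axon growth, had the line difference with the smallest p of the family. It stood at 713 and 773 CPM in IMR-32 with DMSO, 296 and 289.6 CPM in SK-N-DZ and, for KELLY, 279 and 295 CPM. KELLY and SK-N-DZ overlapped, and every IMR-32 library lay above both. Log2 differences to IMR-32 were -1.53 (SE 0.10, adjusted p = 2.06e-24) for KELLY and -1.48 (SE 0.10, adjusted p = 6.65e-24) for SK-N-DZ, by edgeR's quasi-likelihood test with Benjamini-Hochberg adjustment. In the SMARCA4-mAID line with ethanol KLF7 was higher again, at 1090.4 and 1042 CPM, by 0.49 (SE 0.09, adjusted p = 8.14e-05) on the log2 scale over IMR-32 with DMSO. These groups also differ in vehicle, and engineering and vehicle cannot be told apart.

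Of the 9 members, 4 were lower and none was higher in KELLY than in IMR-32, where 39.6% of all tested genes were called and 21.6% were called lower. Besides KLF7 these were KLF12, a CtBP-binding repressor, at 74.2 and 80.9 CPM against 159 and 205, with a log2 difference of -1.38 (SE 0.17, adjusted p = 1.13e-10). KLF13 was at 88.7 and 88.2 against 139 and 134 CPM, a difference of -0.78 (SE 0.21, adjusted p = 0.00132). KLF9, a hormone-responsive repressor, was at 1.89 and 16.2 against 34.1 and 24.4 CPM, a difference of -1.94 (SE 0.51, adjusted p = 0.00138). Its 2 KELLY libraries were far apart, and without KELLY DMSO replicate 1 the difference was -1.04 (adjusted p = 0.169). That no member was higher depended on the processing. After correction for GC content and length KLF3 (0.56, adjusted p = 0.00413) and KLF11 (1.07, adjusted p = 0.0165) were called higher in KELLY, and KLF11 was also called with library totals (0.96, adjusted p = 0.0314) and in a fit of the 4 libraries alone (0.82, adjusted p = 0.0352).

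In SK-N-DZ 5 members were lower and none was higher than in IMR-32, against 44.1% of tested genes called, with 22.9% called lower. KLF9 was at 3.78 and 1.72 CPM, with a log2 difference of -3.53 (SE 0.59, adjusted p = 4.56e-07). KLF11, the second TGF-beta-inducible member, was at 8.18 and 8.62 CPM against 32.7 and 20.9, a difference of -1.82 (SE 0.44, adjusted p = 0.000448). KLF6, a promoter of axon growth, was at 76.8 and 75.8 against 114 and 98.4 CPM, a difference of -0.62 (SE 0.21, adjusted p = 0.0122) that lost its call without IMR-32 DMSO replicate 1 (adjusted p = 0.139), with library totals in place of scaling factors (adjusted p = 0.058) and after correction for GC content and length (-0.33, adjusted p = 0.246). KLF4, one of the factors used to reprogram cells to pluripotency, had 0 counts in both SK-N-DZ vehicle libraries against 13 in IMR-32, at least 5.58-fold lower taking 3 counts over the group as the floor (adjusted p = 0.00585). That call was lost without IMR-32 DMSO replicate 1 (adjusted p = 0.149) or SK-N-DZ DMSO replicate 2 (adjusted p = 0.0546). The fifth was KLF7. Here too the absence of higher members depended on the processing: after correction for GC content and length KLF10 (0.47, adjusted p = 0.00911) and KLF12 (0.47, adjusted p = 0.0122) were called higher than in IMR-32, and KLF13 went from -0.31 to -0.92 and was called lower (adjusted p = 9.41e-05). KLF10 was also called higher with library totals (0.43, adjusted p = 0.0158). Against KELLY, SK-N-DZ had 1 member higher and 2 lower, where 31.8% of tested genes were called, 16.6% higher and 15.2% lower. KLF12 was higher by 1.25 (SE 0.17, adjusted p = 2.21e-09) at 179 and 187 CPM, KLF11 differed by -2.62 (SE 0.42, adjusted p = 2.34e-07) from 47.8 and 58.3 CPM in KELLY, and KLF4 had 0 counts against 8, at least 3.14-fold lower (adjusted p = 0.0415). The KLF4 call was lost without KELLY DMSO replicate 1 (adjusted p = 0.208), SK-N-DZ DMSO replicate 1 (adjusted p = 0.153) or SK-N-DZ DMSO replicate 2 (adjusted p = 0.176), and with the replicate number as a block (adjusted p = 0.0511). KELLY DMSO replicate 1 also set other levels: without it KLF6 was lower in KELLY than in IMR-32 (log2 difference -0.84, adjusted p = 0.00999), and SK-N-DZ against KELLY had KLF9 lower (-2.51, adjusted p = 0.00314) and KLF10 higher (0.56, adjusted p = 0.0152). Without KELLY DMSO replicate 2, KLF3 at -0.51 (adjusted p = 0.0393) and KLF6 at -0.80 (adjusted p = 0.00567) were lower in SK-N-DZ than in KELLY. Between the SMARCA4-mAID line with ethanol and IMR-32 with DMSO, 1 member, KLF7, was called, against 6.16% of genes. Without scaling factors the median log2 difference of all genes moved by 0.16 for KELLY and by 0.14 for SK-N-DZ against IMR-32, and the share of calls that were higher in KELLY moved from 45.6% to 56.4%, the share higher in SK-N-DZ from 48.1% to 56.9%. Differences between lines are therefore relative to the scaling.

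Between 1 and 4 members passed the test in each treatment comparison. With BRM014, 1 of 9 members was called in IMR-32, 4 in KELLY and 4 of the 8 with counts in SK-N-DZ, and with auxin 1 of 9 was called in the SMARCA4-mAID line. Of all tested genes 12.8% were called in IMR-32 (6.26% higher, 6.57% lower), 11.6% in KELLY (6.57% higher, 4.98% lower), 19.4% in SK-N-DZ (9.88% higher, 9.55% lower) and 2.19% with auxin (1.03% higher, 1.16% lower). Members with both treated libraries on one side of both vehicle libraries numbered 6 in IMR-32, 6 in KELLY, 7 in SK-N-DZ and 6 with auxin, where 51.3%, 50.3%, 56.2% and 42.1% of all tested genes did so. The members' median log2 change was 0.36 in IMR-32, 0.43 in KELLY, -0.03 in SK-N-DZ (over 8 members) and 0.23 with auxin, beside medians over all tested genes of -0.02, 0.00, -0.04 and 0.00. A change in every cell and a change in the share of cells that make a transcript cannot be told apart in these bulk libraries, and each change is relative to the rest of its library.

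**Figure D2:**
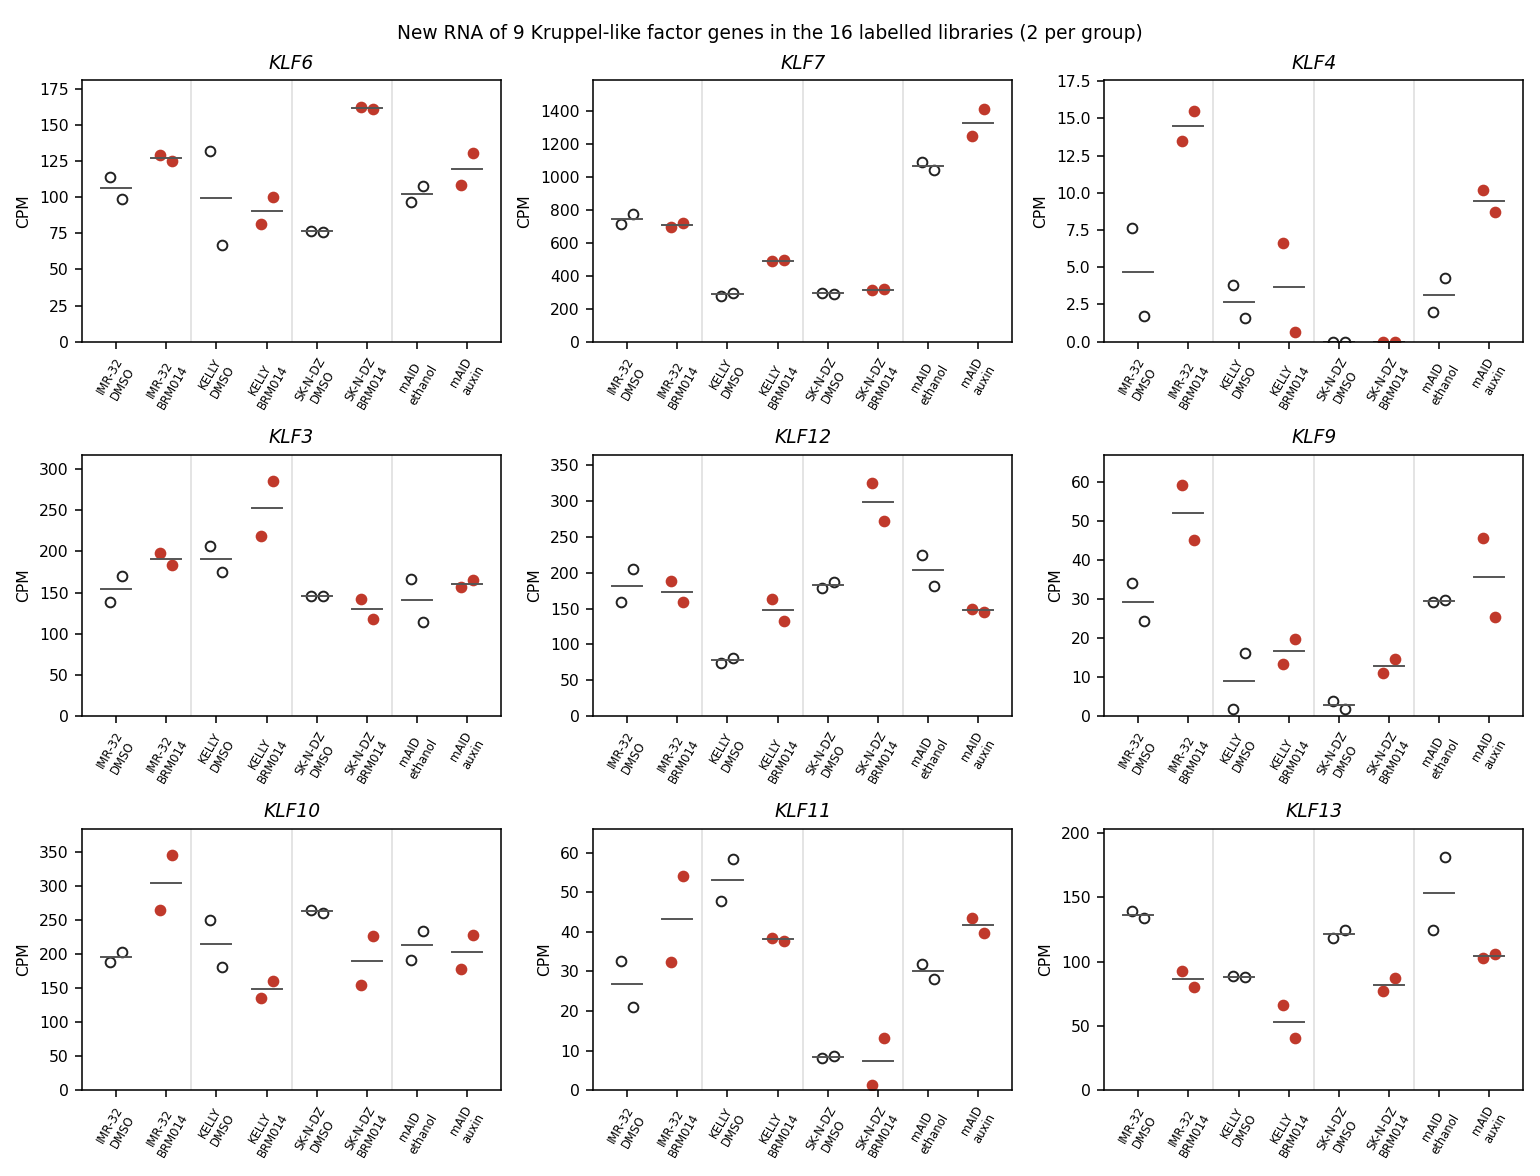
CPM of each member in each labelled library, with open circles for vehicle, filled circles for BRM014 or auxin and a bar at the mean of each group of 2; mAID is the SMARCA4-mAID IMR-32 line, and each panel has its own axis from 0. Both treated libraries of KLF7 and KLF12 in KELLY and of KLF6 in SK-N-DZ lie above both vehicle libraries, KLF10 moves up in IMR-32 and down in KELLY and SK-N-DZ, and KLF13 lies lower in all 4 treated groups.

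KLF6 rose in SK-N-DZ. The values were 76.8 and 75.8 CPM with DMSO and 163 and 161 CPM with BRM014, with no overlap and little spread within either group. The log2 change was 1.09 (SE 0.22, 95% interval 0.66 to 1.52, adjusted p = 5.17e-05), and all 11 alternative settings kept the call. IMR-32 had 114 and 98.4 CPM with DMSO and 129 and 125 with BRM014, a change of 0.31 (SE 0.22, adjusted p = 0.41). KELLY had 132 and 67.2 against 81.7 and 99.9 CPM, where the vehicle libraries lay on either side of the treated ones and the change was -0.11 (SE 0.21, adjusted p = 0.822). Auxin gave 108 and 131 CPM against 97.0 and 107 with ethanol, a change of 0.23 (adjusted p = 0.764). The SK-N-DZ effect exceeded that in KELLY by 1.21 (adjusted p = 0.00648). That difference was 0.60 (adjusted p = 0.48) without KELLY DMSO replicate 1, the KELLY library with the most KLF6. It was not called against IMR-32, at 0.79 (adjusted p = 0.185).

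KLF7 rose in KELLY. It went from 279 and 295 CPM with DMSO to 492 and 493 CPM with BRM014, with no overlap. The log2 change was 0.82 (SE 0.10, 95% interval 0.62 to 1.02, adjusted p = 2.42e-10), and the call held in all 11 alternative settings, in which the change ranged from 0.57 after correction for GC content and length to 0.85. With BRM014, KLF7 in KELLY remained below the IMR-32 level of 713 and 773 CPM. IMR-32 itself had 698 and 723 CPM with BRM014, overlapping its vehicle, with a change of -0.01 (95% interval -0.21 to 0.18). SK-N-DZ had 312 and 317 CPM against 296 and 289.6, a change of 0.11 (95% interval -0.11 to 0.33, adjusted p = 0.542) that was -0.06 after correction for GC content and length. The effect in KELLY exceeded that in IMR-32 by 0.84 (adjusted p = 1.05e-05), and the effect in SK-N-DZ minus that in KELLY was -0.71 (adjusted p = 0.000645). Both differences were called in all 14 alternatives. With auxin the SMARCA4-mAID line went from 1090.4 and 1042 to 1246 and 1412 CPM, a smaller change of 0.32 (SE 0.09, adjusted p = 0.0421) that was called in 6 of 11 alternatives. It lost the call without either ethanol library (adjusted p = 0.161 and 0.472) and without auxin replicate 2 (adjusted p = 0.633). The difference between BRM014 in IMR-32 and auxin was not called, at -0.33 (adjusted p = 0.246).

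KLF4 was near the limit of counting. It had 7.65 and 1.74 CPM in IMR-32 with DMSO and 13.5 and 15.5 CPM with BRM014, and 1.99 and 4.27 CPM with ethanol and 10.2 and 8.68 CPM with auxin. In both comparisons the treated libraries lay above the vehicle ones, but the log2 changes of 1.61 (95% interval -0.37 to 3.59, adjusted p = 0.323) and 1.55 (95% interval -0.44 to 3.54, adjusted p = 0.613) did not pass the test. KELLY had 3.77 and 1.62 CPM against 6.64 and 0.661 with BRM014, with wide overlap. In SK-N-DZ KLF4 had 0 counts in all 4 libraries, which allows a level of up to 0.901 CPM with DMSO and 2.02 CPM with BRM014 at a floor of 3 counts over a group (counting error only).

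KLF12 rose in 2 lines. In KELLY it went from 74.2 and 80.9 to 163 and 133 CPM, a log2 change of 0.98 (SE 0.17, 95% interval 0.63 to 1.33, adjusted p = 8.60e-06) that was called in all 11 alternatives. In SK-N-DZ it went from 179 and 187 to 326 and 273 CPM, a change of 0.72 (SE 0.16, adjusted p = 0.000301). Neither pair of groups overlapped. After correction for GC content and length the SK-N-DZ change was 0.36 (adjusted p = 0.103), no longer called. IMR-32 had 159 and 205 CPM with DMSO and 189 and 159 with BRM014, overlapping, with a change of -0.01 (95% interval -0.35 to 0.33). The KELLY effect exceeded the IMR-32 effect by 0.99 (adjusted p = 0.00628), but the call was lost without IMR-32 BRM014 replicate 2 (adjusted p = 0.0501), IMR-32 DMSO replicate 2 (adjusted p = 0.0908) or KELLY BRM014 replicate 1 (adjusted p = 0.0776). Auxin moved KLF12 the other way, from 225 and 181 to 149 and 146 CPM. That change of -0.46 (SE 0.16) was not called (adjusted p = 0.112), although the libraries did not overlap.

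KLF3, a CtBP-binding repressor, passed the test in no treatment comparison of the fit over all labelled libraries. It had 207 and 176 CPM in KELLY with DMSO and 219 and 286 with BRM014, with no overlap and a change of 0.44 (SE 0.16, adjusted p = 0.054). That result depended on the processing. KLF3 was called higher in KELLY in a fit of the 4 libraries alone (0.43, adjusted p = 0.0349). After correction for GC content and length the KELLY change was 0.24 (adjusted p = 0.39), not called. Leaving out single libraries moved it between 0.24 and 0.60. IMR-32 had 138 and 169.8 against 198 and 183 CPM, a change of 0.36 (adjusted p = 0.176). SK-N-DZ had 146 in both vehicle libraries and 142 and 117 CPM with BRM014, a change of -0.16 (adjusted p = 0.597). Auxin gave 156 and 166 against 166 and 115 CPM, a change of 0.20 (adjusted p = 0.734).

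KLF9 had the largest fitted rise of the family, on few counts. In SK-N-DZ it went from 3.78 and 1.72 CPM, or 6 and 3 counts, to 11.04 and 14.5 CPM, or 8 and 11 counts. The log2 change was 2.20 (SE 0.70, 95% interval 0.81 to 3.60, adjusted p = 0.0162), and the groups did not overlap. The call was lost without BRM014 replicate 2 (adjusted p = 0.118), without DMSO replicate 2 (adjusted p = 0.151) and in a fit of these 4 libraries alone (adjusted p = 0.0593). IMR-32 had 34.1 and 24.4 against 59.3 and 45.2 CPM with BRM014, a change of 0.88 (SE 0.45, adjusted p = 0.211) without overlap. KELLY had 1.89 and 16.2 against 13.3 and 19.8 CPM, overlapping, with a change of 1.00 (SE 0.53, adjusted p = 0.249). That value was 3.10 (adjusted p = 0.00602) without DMSO replicate 2 and 0.09 without DMSO replicate 1. Auxin gave 45.8 and 25.4 CPM against 29.2 and 29.9, a change of 0.26 (adjusted p = 0.917).

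KLF10 went in opposite directions between lines. In IMR-32 it rose from 188 and 203 to 264 and 344 CPM, a log2 change of 0.69 (SE 0.16, 95% interval 0.38 to 1.01, adjusted p = 0.000864). In KELLY it fell from 249.6 and 180.4 to 136 and 161 CPM, a change of -0.50 (SE 0.16, adjusted p = 0.0208). In SK-N-DZ it fell from 265 and 259.7 to 155 and 226 CPM, a change of -0.45 (SE 0.16, adjusted p = 0.0348). Treated and vehicle libraries did not overlap in any of the 3 lines. The KELLY effect minus the IMR-32 effect was -1.20 (SE 0.22, adjusted p = 9.34e-05) and the SK-N-DZ effect minus the IMR-32 effect was -1.15 (SE 0.23, adjusted p = 0.000335), and both were called in all 14 alternatives. The separate calls were less stable than these differences. The rise in IMR-32 was 0.45 (adjusted p = 0.15) without BRM014 replicate 2. The fall in KELLY was -0.40 (adjusted p = 0.225) without BRM014 replicate 1 and -0.23 (adjusted p = 0.636) without DMSO replicate 1. The fall in SK-N-DZ was called in 6 of 11 alternatives and was -0.22 (adjusted p = 0.53) without BRM014 replicate 1, -0.42 (adjusted p = 0.128) without DMSO replicate 1 and -0.47 (adjusted p = 0.0836) without DMSO replicate 2. Auxin gave 178 and 228 CPM against 191 and 234 with ethanol, with overlap and a change of -0.06 (95% interval -0.36 to 0.24). The BRM014 effect in IMR-32 exceeded the auxin effect by 0.75 (adjusted p = 0.0471), a difference called in 7 of 14 alternatives. Without single libraries it fell to 0.52 (adjusted p = 0.376, IMR-32 BRM014 replicate 2), 0.57 (adjusted p = 0.307, ethanol replicate 2), 0.58 (adjusted p = 0.29, auxin replicate 1) and 0.69 (adjusted p = 0.208, IMR-32 DMSO replicate 1), and was 0.80 (adjusted p = 0.0818) without IMR-32 DMSO replicate 2.

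KLF11 was not called in any treatment comparison. IMR-32 had 32.7 and 20.9 CPM with DMSO and 32.3 and 54.2 with BRM014, a change of 0.73 (SE 0.40, adjusted p = 0.252) with overlap. KELLY had 47.8 and 58.3 against 38.5 and 37.7 CPM, a change of -0.43 (SE 0.36, adjusted p = 0.527) without overlap. SK-N-DZ had 8.18 and 8.62 against 1.38 and 13.2 CPM, on either side of the vehicle. Auxin gave 43.6 and 39.7 against 31.9 and 28.1 CPM, a change of 0.47 (SE 0.37, adjusted p = 0.713) without overlap.

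KLF13 was lower in every treated group. The values with vehicle and treatment were 139 and 134 against 93.0 and 79.99 CPM in IMR-32, 88.7 and 88.2 against 66.4 and 40.3 in KELLY, and 118 and 125 against 77.3 and 87.0 in SK-N-DZ. With ethanol it had 125 and 181 CPM and with auxin 103 and 106 CPM. In each of these 4 comparisons both treated libraries lay below both vehicle libraries, which held for 3.98% of all tested genes. The log2 changes were -0.61 (SE 0.22, adjusted p = 0.0552), -0.68 (SE 0.22, adjusted p = 0.03), -0.56 (SE 0.22, adjusted p = 0.0693) and -0.55 (SE 0.20, adjusted p = 0.152), so that only KELLY passed the test. That call was lost without BRM014 replicate 2 (-0.36, adjusted p = 0.464), DMSO replicate 1 (adjusted p = 0.148) or DMSO replicate 2 (adjusted p = 0.0842). In IMR-32 KLF13 was called lower with library totals (-0.66, adjusted p = 0.0355) and with no filter (-0.66, adjusted p = 0.0459). It was also called there in a fit of the 4 libraries alone (-0.61, adjusted p = 0.0422). KLF13 has the most G and C of the 9 longest transcripts, at 57.6%, and KLF12 the least, at 38.8%. After correction for GC content and length KLF13 changed by -0.20 in IMR-32, -0.53 in KELLY (adjusted p = 0.125), -0.07 in SK-N-DZ and -0.38 with auxin, with no call in any of them.

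**Figure D3:**
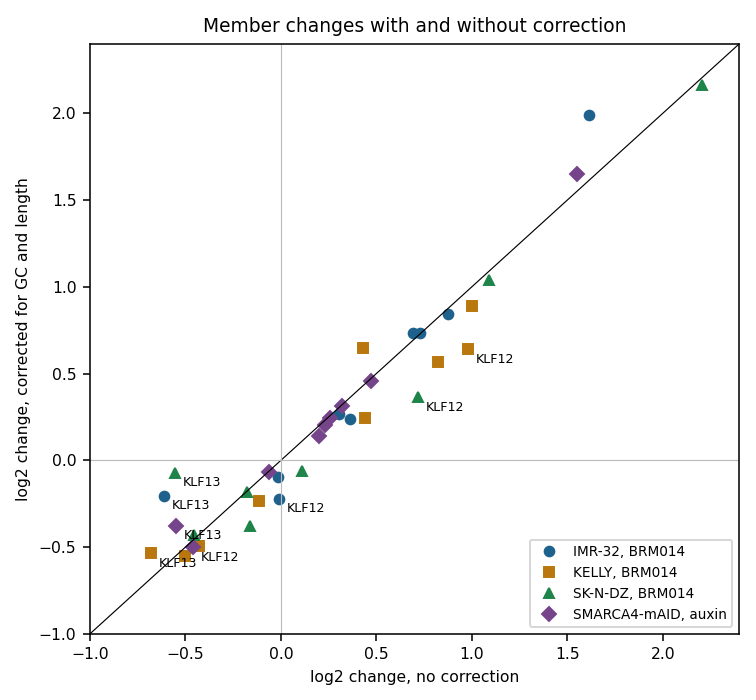
Log2 change of each member in the 4 treatment comparisons without (horizontal axis) and with (vertical axis) correction for the GC content and length of its longest transcript; the line marks equal values. With BRM014 points of KLF13 move toward 0 and points of KLF3, KLF7 and KLF12 move down in each line, for KLF12 in SK-N-DZ from 0.72 to 0.36.

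**Figure D4:**
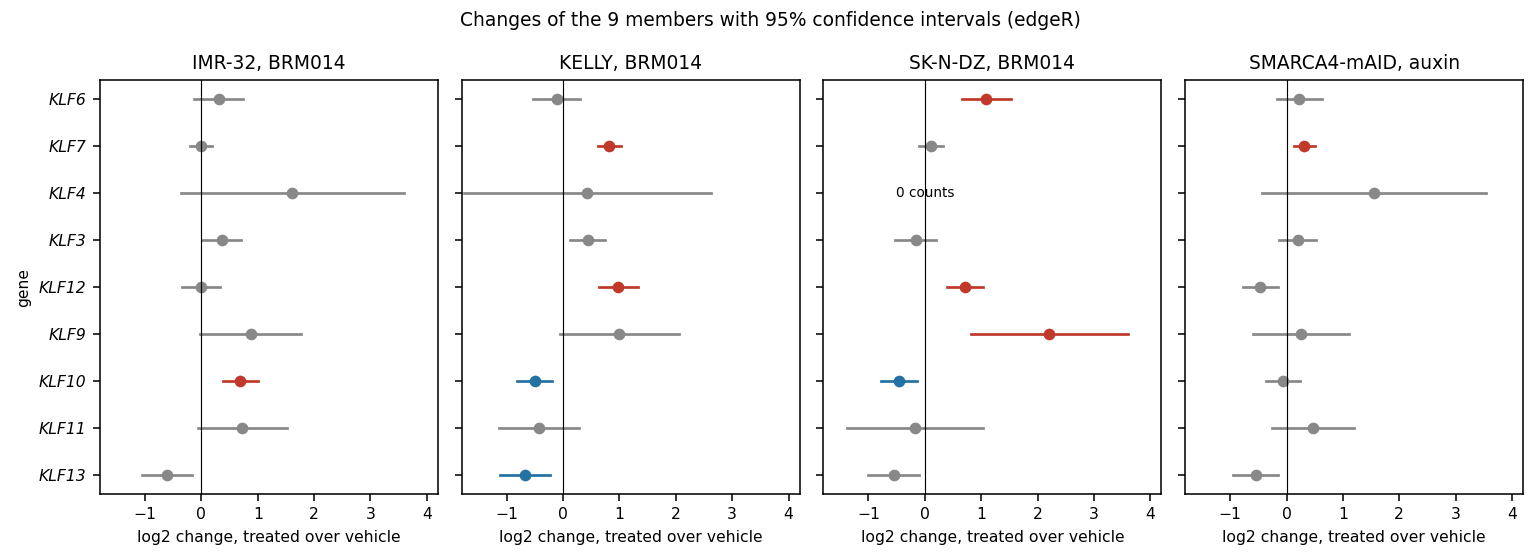
Log2 change of each member with its 95% confidence interval in the 4 treatment comparisons, red for called higher, blue for called lower and grey for not called; KLF4 had 0 counts in SK-N-DZ. KLF10 is red in IMR-32 and blue in KELLY and SK-N-DZ, and KLF12 is red in KELLY and SK-N-DZ.

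Averaged over the 3 lines, 5 of the 8 members that could be fitted were called, against 30.2% of tested genes (14.8% higher, 15.3% lower). Log2 changes were 0.43 for KLF6 (SE 0.12, adjusted p = 0.00474), 0.31 for KLF7 (SE 0.06, adjusted p = 1.94e-05), 1.36 for KLF9 (SE 0.33, adjusted p = 0.000637), 0.56 for KLF12 (SE 0.10, adjusted p = 1.54e-06) and -0.62 for KLF13 (SE 0.13, adjusted p = 7.28e-05). KLF9 and KLF12 were called in all 18 alternatives for this mean. KLF7 at 0.14 (adjusted p = 0.0777) and KLF13 at -0.27 (adjusted p = 0.123) were not called after correction for GC content and length, and KLF6 at 0.29 (adjusted p = 0.0682) was not called without KELLY DMSO replicate 2. A joint test of whether the effect differs among the 3 lines called KLF6 (adjusted p = 0.0129), KLF7 (adjusted p = 7.55e-06), KLF10 (adjusted p = 2.23e-05) and KLF12 (adjusted p = 0.00798), 4 of 8 members against 6.47% of tested genes. For KLF9 and KLF13 the joint test was not called (adjusted p = 0.607 and 0.985), which does not show that the lines respond alike.

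Pairs of lines differed for 3 members between KELLY and IMR-32 (3.28% of tested genes called), 1 between SK-N-DZ and IMR-32 (2.61%) and 2 between SK-N-DZ and KELLY (3.9%). Between BRM014 in IMR-32 and auxin in its SMARCA4-mAID derivative 1 member, KLF10, was called (1.95%). Correction for GC content and length moved the share of differences between KELLY and IMR-32 that lay above 0, over all called genes, from 63.3% to 48.5%. Library totals moved it from 54.4% to 44.2% for BRM014 against auxin.

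**Figure D5:**
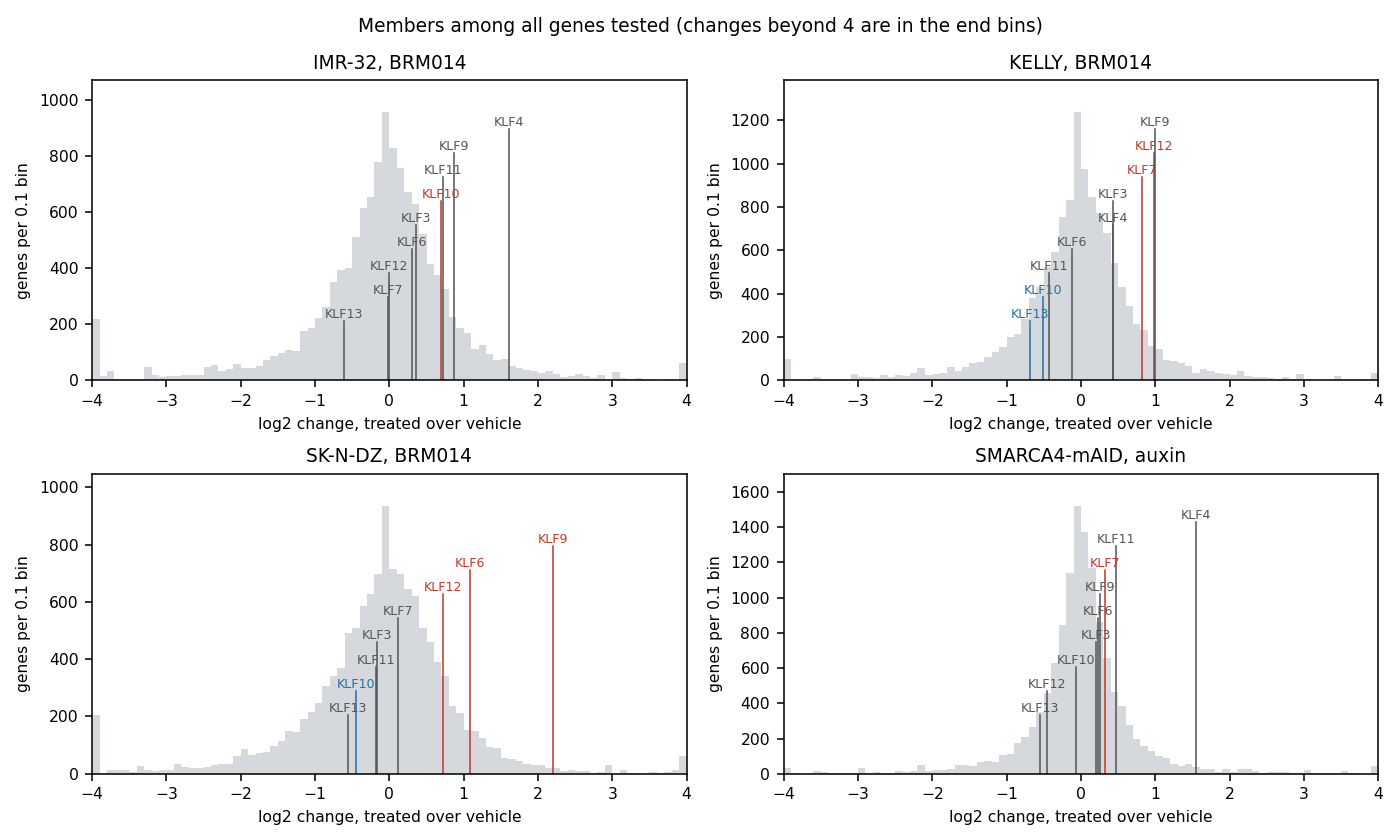
Distribution of the log2 change of all tested genes (grey bars, genes per 0.1 bin, changes beyond 4 in the end bins) in the 4 treatment comparisons, with the members as vertical lines, red for called higher, blue for called lower and dark grey for not called; line heights only separate the names. The called members range from -0.68 for KLF13 in KELLY to 2.20 for KLF9 in SK-N-DZ.

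The makeup of the family by level per kb shifted with BRM014 in each line. KLF7 made up 17.6% and 21.7% of the members' summed level in KELLY with DMSO and 31.7% and 29.6% with BRM014, while KLF10 went from 33.9% and 28.6% to 18.8% and 20.8%. KLF7 made up 37.0% and 38.3% in IMR-32 with DMSO and 31.5% and 30.5% with BRM014. In SK-N-DZ it made up 19.7% and 19.3% with DMSO and 21.3% and 19.96% with BRM014. The share of KLF7 in SMARCA4-mAID cells was 46.6% and 44.2% with ethanol and 50.7% and 51.7% with auxin. These shares are descriptions without a test.

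Of the 17 other genes of the KLF and SP family, 8 were tested and 3 had 0 counts in all labelled libraries. In IMR-32 2 of the 8 were higher and 0 lower, in SK-N-DZ 1 and 0, in KELLY 1 and 3, and with auxin 0 and 0. Shares called over all tested genes were 12.8% in IMR-32, 19.4% in SK-N-DZ, 11.6% in KELLY and 2.19% with auxin. SP3, a ubiquitous GC-box factor, rose with BRM014 in each line, by 0.34 in IMR-32 (adjusted p = 0.0241), 0.50 in KELLY (adjusted p = 0.000182) and 0.58 in SK-N-DZ (SE 0.11, adjusted p = 1.36e-05). SP4, its neuron-enriched relative, rose by 0.64 in IMR-32 (SE 0.19, adjusted p = 0.0126). SP6 had 56 counts in KELLY with DMSO and 0 with BRM014, at least 19.9-fold lower (adjusted p = 0.00108).

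The cofactors and ubiquitin ligases of the family were called at shares near those of all tested genes in KELLY (11.6%) and SK-N-DZ (19.4%). Of 20 corepressors, coactivators and ubiquitin ligases, 1 was higher in IMR-32, 3 in KELLY and 3 in SK-N-DZ, 1 was lower in SK-N-DZ and 0 were called with auxin. The share over all tested genes was 12.8% in IMR-32 and 2.19% with auxin. FBXO32, a muscle-atrophy ubiquitin ligase, rose by 2.34 in SK-N-DZ (SE 0.54, adjusted p = 0.000559), and ITCH, a HECT ubiquitin ligase, rose there by 0.57 (SE 0.14, adjusted p = 0.00197). The list's median change was 0.10 in SK-N-DZ, 0.16 in KELLY, 0.19 in IMR-32 and 0.02 with auxin. Medians over all tested genes, for this list and those below, were -0.04 in SK-N-DZ, 0.00 in KELLY, -0.02 in IMR-32 and 0.00 with auxin.

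Of 17 tested genes of the TGF-beta pathway, which induces KLF10 and KLF11 in other settings, 2 were higher in IMR-32, 2 in KELLY and 2 in SK-N-DZ. In SK-N-DZ 4 were lower, and with auxin 1 was higher and 1 lower. Over all tested genes 12.8% were called in IMR-32, 11.6% in KELLY, 19.4% in SK-N-DZ and 2.19% with auxin. SKIL, a feedback repressor of SMAD signalling, rose by 2.02 in KELLY (SE 0.09, adjusted p = 1.49e-33), where KLF10 fell. BAMBI, a decoy receptor, fell by 1.74 on the log2 scale in SK-N-DZ (SE 0.22, adjusted p = 7.46e-10), and PMEPA1, another feedback inhibitor, fell by 1.27 (SE 0.27, adjusted p = 0.000192). The list's median change was -0.13 in SK-N-DZ, 0.13 in KELLY, 0.28 in IMR-32 and 0.01 with auxin.

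Of 20 tested glucocorticoid and circadian genes, a group that KLF9 belongs to by its regulation, 3 were higher and 1 lower in IMR-32, 3 and 1 in SK-N-DZ, 4 and 0 in KELLY, and 1 and 0 with auxin. The shares of all tested genes called were 12.8%, 19.4%, 11.6% and 2.19% in the same order. NR1D2, a nuclear receptor of the circadian clock, rose by 1.11 in KELLY (SE 0.15, adjusted p = 2.02e-09), and BHLHE41, a clock repressor, rose there by 3.55 (SE 0.67, adjusted p = 3.12e-05). FKBP5, a glucocorticoid receptor chaperone and target, fell by 1.09 on the log2 scale in SK-N-DZ (SE 0.17, adjusted p = 5.85e-07), the line in which KLF9 rose. Medians of the list were 0.38 in IMR-32, 0.42 in KELLY, 0.32 in SK-N-DZ and 0.07 with auxin.

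Of 14 tested immediate early genes, 2 were higher in IMR-32, 2 lower in KELLY, 2 higher and 3 lower in SK-N-DZ, and 0 called with auxin. Among all tested genes the shares called were 12.8%, 11.6%, 19.4% and 2.19% in that order. EGR1, a zinc finger factor induced by growth signals, rose by 2.11 in IMR-32 (SE 0.31, adjusted p = 1.20e-07). ATF3, a stress-induced factor, fell by 1.81 on the log2 scale in KELLY (SE 0.52, adjusted p = 0.0101). NR4A2, an orphan nuclear receptor, was called higher in SK-N-DZ (adjusted p = 0.00105) from 3 counts with DMSO to 21 with BRM014. Medians of the list were 0.04 in IMR-32, -0.45 in KELLY, -0.18 in SK-N-DZ and 0.04 with auxin.

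Of 18 tested genes of axon growth and regeneration, the process that KLF4, KLF6, KLF7 and KLF9 control in neurons, 4 were higher and 4 lower in IMR-32, 6 and 6 in SK-N-DZ, 4 and 4 in KELLY, and 1 and 2 with auxin. For all tested genes the shares called in either direction were 12.8% in IMR-32, 19.4% in SK-N-DZ, 11.6% in KELLY and 2.19% with auxin. SOX11, which drives axon regrowth programmes, rose by 1.14 in SK-N-DZ (SE 0.09, adjusted p = 4.83e-19), and MAP2, a dendritic microtubule protein, rose by 1.42 in IMR-32 (SE 0.16, adjusted p = 2.67e-11). CDKN1A, a cell cycle inhibitor that KLF4 and KLF6 are known to activate, fell by 4.90 on the log2 scale in SK-N-DZ (SE 0.46, adjusted p = 3.08e-15), from 477 to 7 counts over the group. Medians of the list were 0.01 in IMR-32, 0.27 in KELLY, 0.04 in SK-N-DZ and 0.07 with auxin.

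The genes whose log2 CPM followed each called member most closely over the 16 labelled libraries were ranked by Pearson correlation among tested genes with a mean count of at least 50, which are descriptions over libraries that share line and depth. They were TCF12 (r = 0.96), CHML (0.96) and ATP1B1 (0.96) for KLF7, PBRM1 (0.94), INTS2 (0.93) and ICE2 (0.93) for KLF9, and SLC20A1 (0.94), MSI1 (0.92) and TLE3 (0.90) for KLF13. For KLF12 they were KIAA1958 (0.89), SOX11 (0.89) and WNK1 (0.89), for KLF6 CFL2 (0.85), C1D (0.84) and HCFC2 (0.83), and for KLF10 MCM9 (0.80), THAP9-AS1 (0.80) and HEG1 (0.77). Among the members themselves the highest correlation was that of KLF7 and KLF9, at 0.79.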

How the data were processed

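Per the labels' protocols, RNA of 4sU-labelled cells was treated with iodoacetate before poly(dT) capture, and the authors deposited raw conversion counts per gene for each library. The submitters' processing notes name HISAT, HTSeq, DESeq2 and hg38, without versions. The counting rule, annotation and strandedness were not given in the sources used here. HTSeq summary lines stayed out of totals; reads without a feature were 46.4% to 57.4% in labelled libraries. CPM is counts per 1000000 gene counts, and CPM per kb divides by the exon length in GENCODE 29.

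The quasi-likelihood test of edgeR 4.0.16 (R 4.3.3; TMM factors, filterByExpr, group means, 8 residual degrees of freedom, biological coefficient of variation 0.143) was fitted over all 16 labelled libraries. The threshold was an adjusted p (Benjamini-Hochberg) of 0.05 over 12853 genes. The fit was tested on simulated data with changes planted only in genes above a minimum level in SK-N-DZ with DMSO. KLF4, KLF9 and KLF11 lie below that level, so the simulation does not cover them. Members, lists and tests were chosen with earlier results of these data known. Named are all 9 members, up to 3 called genes per list with the smallest p, and the 3 genes most like each called member. A gene that this rule names is not reported here. Alternatives were DESeq2 1.42.0, other scaling, no filter, a GC and length correction (97.3% of genes), fits of 4 libraries, a replicate block and leaving out each library. No 2 libraries of a group matched within sampling noise (chi-square per degree of freedom at least 2.37).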

Additional observations from a re-analysis of the deposited data

Results flagged for a closer look

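The effect of BRM014 differed between lines, by a test of the difference itself, for 4 members. The KELLY effect minus the IMR-32 effect was 0.84 for KLF7 (adjusted p = 1.05e-05), 0.99 for KLF12 (adjusted p = 0.00628) and -1.20 for KLF10 (adjusted p = 9.34e-05). The SK-N-DZ effect minus the IMR-32 effect was -1.15 for KLF10 (adjusted p = 0.000335). The SK-N-DZ effect minus the KELLY effect was 1.21 for KLF6 (adjusted p = 0.00648) and -0.71 for KLF7 (adjusted p = 0.000645). The effect of BRM014 in IMR-32 minus that of auxin in the SMARCA4-mAID line was 0.75 for KLF10 (adjusted p = 0.0471), with the tagged line and the vehicle differing as well. KLF10 was the member for which 2 lines were called in opposite directions.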

How the results depend on the processing

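Counts of members called moved by more than 1.5 times as follows. For auxin, 1 became 0 with DESeq2 size factors and with no filter. For BRM014 in IMR-32, 1 became 2 with library totals, with no filter and with only the 4 libraries compared. For SK-N-DZ minus IMR-32, 1 became 2 with library totals and with no filter. For BRM014 in IMR-32 minus auxin, 1 became 0 with library totals and with DESeq2. With the GC and length correction, 4 became 2 in SK-N-DZ, 5 became 3 for the mean over lines, and KLF12 in SK-N-DZ against IMR-32 vehicles turned from -0.12 to 0.47 (adjusted p = 0.0122). Calls over all genes fell with this correction too. In SK-N-DZ they went from 2498 of 12853 genes to 1770 of 12505, and for the mean over lines from 3879 to 2946. Without 1 library each, members called ranged from 0 to 1 in IMR-32, 2 to 4 in KELLY, 2 to 3 in SK-N-DZ, 0 to 1 with auxin, 0 to 1 for IMR-32 minus auxin, 1 to 2 for SK-N-DZ minus IMR-32, 1 to 2 for SK-N-DZ minus KELLY, 3 to 5 for the vehicles of SK-N-DZ against IMR-32 and 2 to 5 for those of SK-N-DZ against KELLY. All genes called fell from 1650 to as few as 922 in IMR-32, 1485 to 872 in KELLY, 2498 to 1622 in SK-N-DZ and 281 to 131 with auxin. Leaving out a library weakened 26 member results and strengthened 11, not counting the KLF4 vehicle calls against SK-N-DZ, of which 5 more were lost. Replicate numbers did not pair the libraries (correlations of -0.0439 to 0.0121), and with the replicate block KLF7 in KELLY changed by 0.82; of the member results only the KLF4 vehicle call of SK-N-DZ against KELLY was lost (adjusted p = 0.0511). KLF4 had no adjusted p for the vehicles in fits of 4 libraries. Depth limits KLF4, KLF9 and KLF11.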
